A study of Mus musculus with 51 samples.

Results

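Epcam, Cd24a, Itga6, Itgb1, Itgb3, Itga2, Itgb4 and Cd44 encode cell surface proteins by which mammary epithelial cells are commonly sorted. The 8 genes were taken by name after the identifiers in the count tables were matched to mouse symbols, and they are 8 of the 52636 genes in the tables. RNA was sequenced from cells sorted out of mouse mammary glands to examine how an antagonist of the estrogen receptor acts on glands with a wild-type or a mutant receptor gene, Esr1. The 51 libraries form 17 groups of 3, which the study describes as biological replicates. The mice were wild type (WT) or carried the receptor mutation D542G or Y541S, and were raised to 6 months of age. All of them, controls included, carried hormone pellets of E2 and P4, the estrogen estradiol and progesterone. They were then dosed daily for 4 days with the vehicle MCT or by mouth with giredestrant at 30 mg/kg, an antagonist and degrader of the receptor. Mature luminal (ML) and Basal cells were sequenced for each genotype under both treatments. Luminal progenitors (LP) were sequenced for each genotype with giredestrant. A further sorted population, N, was sequenced for D542G and Y541S mice with giredestrant. How the mutations were introduced, whether 1 or both alleles carried them, and whether glands of several mice were pooled were not stated.

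Integrins are receptors for the extracellular matrix, each built of an alpha and a beta chain. The Itga6 chain binds laminin in a pair with the Itgb1 chain or with the Itgb4 chain, and the pair with Itgb4 is the laminin receptor of hemidesmosomes, the junctions that hold basal epithelial cells to the basement membrane. Itga2 pairs with Itgb1 to bind collagen, and Itgb3 pairs with Itgav to bind vitronectin, fibronectin and osteopontin. EpCAM, the product of Epcam, is an adhesion protein of epithelial cells, CD24 is a small lipid-anchored glycoprotein, and CD44 binds hyaluronan. In the mouse gland, luminal cells are known as high for EpCAM and CD24 and low for the integrins of Itga6 and Itgb1, and basal cells as the reverse. Itgb3 is known as a surface marker of luminal progenitors in some mouse strains. The sources used here do not name the antibodies and gates of this sort. Where a member was gated on as a protein, its RNA difference between sorted populations is not independent of the sort.

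Each library held 21397339 to 60128473 counts (median 32929841), and the smallest count of a member in any library was 47. Levels below are CPM, counts scaled to a common library total with TMM factors over all 51 libraries, given as mean ± SD over the 3 libraries of a group. They are not per length, so they compare libraries for 1 gene, not genes with each other. Where groups are said not to overlap, this describes their libraries and is not a test. The share of all genes that separate in the same way is not given. In bulk samples, fewer cells of a type and less RNA per cell cannot be told apart. Summed over 8 basal markers, Basal libraries held 19073 to 38236 CPM, N 2103 to 14470.3, LP 147 to 4646 and ML 99.5 to 982. Mature luminal markers summed to 762 to 4739 CPM in ML, 547 to 2172 in LP, 2071 to 3147 in N and 90.8 to 769 in Basal. Luminal progenitor markers did not separate ML (547 to 4882) from LP (1833 to 3494), with 267 to 535 in N and 49.6 to 578 in Basal. In D542G mice with giredestrant, ML held 3042, 4882 and 4782 CPM of progenitor markers and LP 3198, 2736 and 2562, so these ML libraries go against their label on that list. Mature luminal markers did not set these ML libraries above LP either, at 2120, 1786 and 762 CPM in ML and 1303, 2172 and 2073 in LP. Each comparison of D542G N with ML or LP rests on these libraries. The 3 WT vehicle ML libraries stood apart in endothelial markers, with 861 to 1006 CPM against at most 659 in any other library. Endothelial genes did not all go the same way. In WT mice with giredestrant, the log2 ratio of ML to Basal was 1.38 for Vwf. It was -1.36 for Pecam1, -1.59 for Cdh5, -1.53 for Kdr, -1.57 for Tie1, -1.30 for Tek, -1.24 for Emcn and -1.32 for Cldn5. Whether the sum follows endothelial cells was not tested. The 3 Y541S LP libraries stood apart in fibroblast markers, with 13081, 4915 and 4209.9 CPM, and library 1 also held 4646 CPM of basal markers. D542G LP library 3 came next, with 3365 CPM of fibroblast markers against 671 and 612 in D542G LP libraries 1 and 2. D542G giredestrant Basal libraries 1 and 2 held the most mature luminal markers of all Basal libraries (635 and 769 CPM). Ptprc, the pan-leukocyte marker, reached at most 9.87 CPM in any library. Endothelial markers summed to 39.5 to 1006 CPM, immune markers to 8.63 to 109, pericyte markers to 106 to 433, adipocyte markers to 17.96 to 509.8 and erythroid markers to 3.42 to 89.97.

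N cells held Epcam RNA far above Basal cells, Itga6 RNA above luminal cells, more Itgb4 RNA than any other sorted population, and less Itgb3 RNA than LP and Basal cells. Itgb1 RNA was called higher in N than in luminal cells of the same genotype with giredestrant. Against Y541S ML the Itgb1 libraries overlapped, and that call was lost in most alternative fits. Each N population was compared with ML, LP and Basal cells of its own genotype by edgeR's quasi-likelihood test, with p-values adjusted by Benjamini-Hochberg over all genes tested and called at an adjusted p under 0.05. In D542G mice, 3 members were higher and 1 was lower in N than in ML (of all genes tested, 10.8% higher and 9.83% lower were called), 3 were higher and 2 lower than in LP (13.8% higher and 12.2% lower), and 2 were higher and 1 lower than in Basal (12.1% higher and 13% lower). In Y541S mice, 3 members were higher and none lower than in ML (6.97% higher and 4.83% lower), 3 higher and 2 lower than in LP (10.9% higher and 11.1% lower), and 3 higher and 4 lower than in Basal (16.4% higher and 17.2% lower). The 3 comparisons of a genotype share the same N libraries. All 8 members passed the filter on low counts in every comparison.

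**Figure D1:**
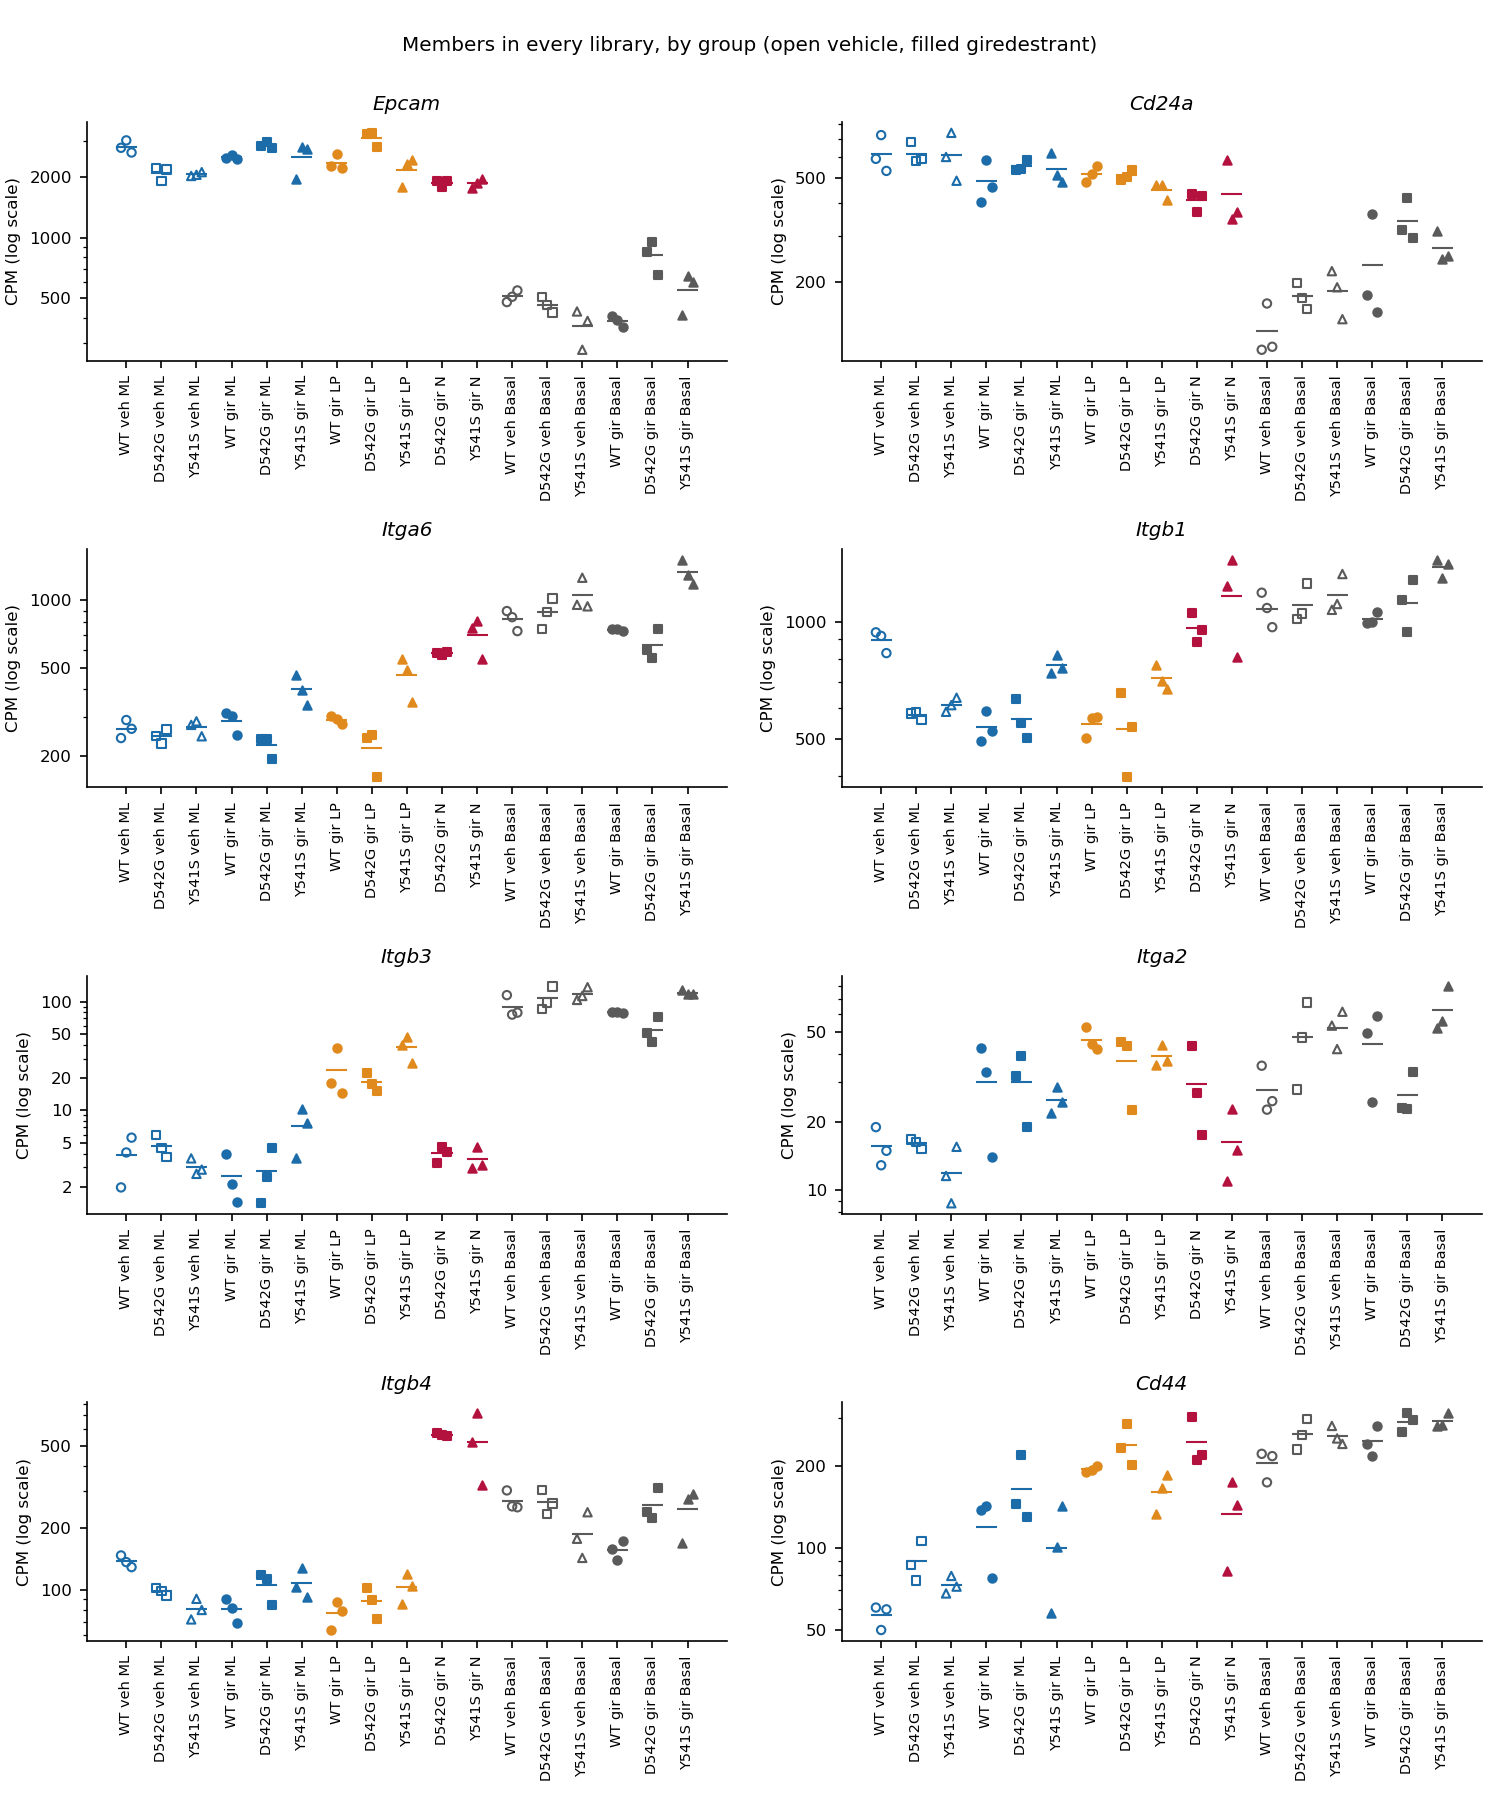
Level of each member (CPM, log scale) in the 51 libraries, 17 groups along the horizontal axis, 1 point a library and a line at the group mean; blue ML, orange LP, red N, grey Basal, open symbols vehicle (veh), filled symbols giredestrant (gir). Itgb4 in the 6 N libraries (323 to 719 CPM) lies above all other libraries, and Itgb3 in N lies with ML.

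Itgb4, the hemidesmosome chain, gave the clearest mark of N. The 3 D542G N libraries held 573, 562 and 558 CPM and the 3 Y541S N libraries 522, 719 and 323. With giredestrant, Basal cells held 238, 222 and 309.9 CPM in D542G mice and 168, 277 and 289.9 in Y541S mice. ML cells held 118, 113 and 84.1 CPM in D542G mice and 103, 127 and 92.2 in Y541S mice, and LP cells 102, 89.1 and 72.3 and 85.5, 119 and 105. All 6 N libraries were above each of the other 45 libraries, whose highest value was 309.9 CPM in a D542G giredestrant Basal library. The log2 ratio of N to ML was 2.45 (SE 0.26, adjusted p = 2.76e-06) in D542G mice and 2.31 (SE 0.25, adjusted p = 1.43e-05) in Y541S mice. Against LP it was 2.71 (SE 0.26, adjusted p = 6.39e-07) and 2.37 (SE 0.25, adjusted p = 4.53e-06), and against Basal 1.16 (SE 0.24, adjusted p = 0.00171) and 1.10 (SE 0.24, adjusted p = 0.0016). Without the 2 D542G Basal libraries that held luminal markers, the ratio to Basal was 0.86 in D542G mice, with 1 Basal library left (309.9 CPM). Without Y541S LP library 1, the one with basal markers, the Y541S ratio to LP was 2.26. Itgb4 (ENSMUSG00000020758) lies on mouse chromosome 11 from 115974709 to 116008412, plus strand, in GRCm38. Of its exonic bases, 22.6% lie within the span of B230344G16Rik on the opposite strand, which was listed at 0 in all libraries. In CPM, vehicle ML averaged 137 ± 9.01 in WT, 98.1 ± 4.07 in D542G, 80.6 ± 9.31 in Y541S, and vehicle Basal 269 ± 29.3 in WT, 266 ± 36.2 in D542G, 186 ± 48.1 in Y541S. Under giredestrant they were 80.2 ± 10.8 in WT, 105 ± 18.3 in D542G, 108 ± 17.8 in Y541S for ML, 76.7 ± 11.9 in WT, 87.8 ± 14.95 in D542G, 103 ± 16.9 in Y541S for LP and 156 ± 17.1 in WT, 257 ± 46.8 in D542G, 245 ± 66.7 in Y541S for Basal (± SD, n = 3 each). The N groups stood first and second in the order of the 17 groups. Below the step from Y541S N to WT vehicle Basal, the libraries of neighbours separated once, between ML of WT mice with vehicle and ML of Y541S mice with giredestrant.

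Itga6, the alpha chain that pairs with Itgb4 and Itgb1, was at the lower end of the basal range in N. Itga6 (ENSMUSG00000027111) lies on mouse chromosome 2 from 71745616 to 71858416, plus strand, in GRCm38. N libraries held 583, 569.7 and 586 CPM in D542G mice and 751, 809 and 549 in Y541S mice. ML held 239, 239 and 195 CPM and 462, 398 and 339 in the same genotypes, and LP 242, 249 and 162 and 548, 489.7 and 349. Basal held 601, 549 and 744 CPM in D542G mice, around N, and 1526, 1306 and 1187 in Y541S mice, all above N. The log2 ratio of N to ML was 1.39 (SE 0.20, adjusted p = 6.52e-05) in D542G mice and 0.85 (SE 0.20, adjusted p = 0.00739) in Y541S mice, and that of N to LP was 1.44 (SE 0.20, adjusted p = 3.13e-05) and 0.63 (SE 0.20, adjusted p = 0.0255). Against Basal it was -0.10 (SE 0.20, adjusted p = 0.75) in D542G mice, not called, and -0.92 (SE 0.20, adjusted p = 0.00117) in Y541S mice. The Y541S call against ML ended without Y541S giredestrant N library 2 (0.71). Without ML libraries 1 and 2 together, which leaves 1 ML library, that ratio was 1.07. The Y541S call against LP ended without Y541S giredestrant N library 1 or 2 or Y541S giredestrant LP library 2 or 3 (0.47 to 0.66). In CPM, vehicle ML averaged 266 ± 24.7 in WT, 246 ± 17.6 in D542G, 269.7 ± 21.4 in Y541S, and vehicle Basal 822 ± 85.5 in WT, 884 ± 139 in D542G, 1054 ± 183 in Y541S. Under giredestrant they were 289 ± 34.1 in WT, 225 ± 25.7 in D542G, 399 ± 61.9 in Y541S for ML, 292 ± 12.6 in WT, 218 ± 48.4 in D542G, 462 ± 102 in Y541S for LP and 740.2 ± 7.97 in WT, 631 ± 101 in D542G, 1339 ± 172 in Y541S for Basal (± SD, n = 3 each). In the order of the 17 groups, Y541S giredestrant Basal was highest and D542G giredestrant LP lowest. Neighbouring groups separated between D542G N and Y541S LP and between Y541S giredestrant ML and WT LP, and in none of the other 14 steps.

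Itgb1, the beta chain shared by the collagen and several laminin and fibronectin receptors, was also called higher in N than in luminal cells of the same genotype with giredestrant. Itgb1 (ENSMUSG00000025809) lies on mouse chromosome 8 from 128685654 to 128733200, plus strand, in GRCm38. N held 1053, 887 and 949.7 CPM in D542G mice and 1233, 1444 and 813 in Y541S mice, where library 3 was lowest. Giredestrant ML held 633, 549 and 501 CPM and 738, 819 and 759, LP 656, 399 and 536 and 775, 703 and 672, and Basal 1136, 942 and 1278 and 1445, 1297 and 1408. N lay above every luminal library of D542G mice. D542G N library 2 and Y541S N library 3 lay below every Basal library, and Y541S N library 1 below the 3 Basal libraries of its genotype and treatment. In D542G mice the log2 ratio of N was 0.80 (SE 0.19, adjusted p = 0.00556) to ML and 0.89 (SE 0.19, adjusted p = 0.00213) to LP, with no overlap of libraries. In Y541S mice it was 0.62 (SE 0.19, adjusted p = 0.0407) to ML, where the libraries overlapped, and 0.73 (SE 0.19, adjusted p = 0.00998) to LP. The ratio to ML lost its call without any 1 of the 3 Y541S giredestrant ML libraries or Y541S giredestrant N library 1 or 2 (0.41 to 0.65), and that to LP without Y541S giredestrant N library 2 (0.53). With library totals in place of TMM the ratio to ML was 0.44 (adjusted p = 0.0933). It was 0.62 (adjusted p = 0.0649) with no filter on low counts. Without Y541S ML libraries 1 and 2 together, which leaves 1 ML library, it was 0.63. N did not pass the test against Basal, with log2 ratios of -0.19 (adjusted p = 0.5) and -0.24 (adjusted p = 0.357). Without giredestrant, the mean CPM was 896 ± 57.96 in WT, 575 ± 14.6 in D542G, 611 ± 25.5 in Y541S for ML and 1080.2 ± 109.8 in WT, 1107 ± 128 in D542G, 1170.2 ± 137 in Y541S for Basal. After giredestrant the averages were 535 ± 47.6 in WT, 561 ± 66.9 in D542G, 772 ± 42.4 in Y541S for ML, 544 ± 37.4 in WT, 531 ± 128 in D542G, 717 ± 52.99 in Y541S for LP and 1016 ± 35.8 in WT, 1119 ± 169 in D542G, 1384 ± 77.1 in Y541S for Basal (± SD, n = 3 each). WT vehicle ML was the highest luminal group, with a mean within the range of N (813 to 1444 CPM). It lay above the next, Y541S giredestrant ML, with no overlap. Neighbours also separated between Y541S LP and Y541S vehicle ML and between vehicle ML of Y541S and of D542G mice.

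Epcam in N lay between the luminal groups and Basal cells by group mean. Epcam (ENSMUSG00000045394) lies on mouse chromosome 17 from 87635979 to 87651129, plus strand, in GRCm38. N held 1916, 1777 and 1896 CPM in D542G mice and 1752, 1853 and 1956 in Y541S mice. ML held 2824, 2969.9 and 2777 CPM with giredestrant in D542G mice and 1957, 2816 and 2736 in Y541S mice, LP 3262, 3299 and 2801 and 1776, 2305 and 2419, and Basal 852, 952 and 651 and 412, 643 and 603. All 3 N libraries lay below every ML and LP library in D542G mice, and overlapped LP in Y541S mice. Every N library was above every Basal library, by a log2 ratio of 1.21 (SE 0.18, adjusted p = 7.55e-05) in D542G mice and 1.76 (SE 0.18, adjusted p = 7.62e-07) in Y541S mice. Without the 2 D542G Basal libraries that held luminal markers, the first ratio was 1.51, with 1 Basal library left. In D542G mice N was lower than ML, at a log2 ratio of -0.59 (SE 0.18, adjusted p = 0.0234), and lower than LP, at -0.71 (SE 0.18, adjusted p = 0.00598). The call against ML ended without D542G giredestrant ML library 1 or 2 or any 1 of the 3 D542G giredestrant N libraries (-0.61 to -0.56). In Y541S mice the ratios to ML and LP, -0.40 (adjusted p = 0.167) and -0.19 (adjusted p = 0.486), did not pass. With vehicle, the mean CPM in ML was 2815 ± 198 in WT, 2097 ± 173 in D542G, 2057 ± 46.3 in Y541S mice, and in Basal 512 ± 34.1 in WT, 466 ± 41.9 in D542G, 365 ± 78.4 in Y541S. With giredestrant the means were 2497 ± 64.7 in WT, 2857 ± 101 in D542G, 2503 ± 475 in Y541S for ML, 2351 ± 211 in WT, 3121 ± 277 in D542G, 2167 ± 343 in Y541S for LP and 388 ± 24.05 in WT, 818 ± 153 in D542G, 553 ± 123 in Y541S for Basal (± SD, n = 3 each). All 51 libraries fell on either side of a gap, with ML, LP and N at 1752 CPM or more and Basal at 952 or less. Neighbouring groups separated in 4 of 16 steps, among them Y541S vehicle ML, the lowest luminal group, above D542G N, Y541S N above D542G giredestrant Basal, and D542G above Y541S giredestrant Basal.

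The bases before the start of Epcam and of Itgb1, a luminal-high and a basal-high gene, are shown as the promoters of the members that place N on the luminal and the basal side. They are RefSeq sequence of GRCm38.p6 on the plus strand, 250 bases up to the start, at chr17:87635729-87635978 for Epcam and chr8:128685404-128685653 for Itgb1. Capitals mark CAGGTG or its reverse complement CACCTG, the E-box bound by the ZEB and Snail repressors, and GGGCGG or its reverse complement CCGCCC, the GC box.
Epcam: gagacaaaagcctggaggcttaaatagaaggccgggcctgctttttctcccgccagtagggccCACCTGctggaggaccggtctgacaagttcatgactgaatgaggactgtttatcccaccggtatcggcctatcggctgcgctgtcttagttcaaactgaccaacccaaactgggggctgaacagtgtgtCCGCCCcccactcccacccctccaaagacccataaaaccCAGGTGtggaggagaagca
Itgb1: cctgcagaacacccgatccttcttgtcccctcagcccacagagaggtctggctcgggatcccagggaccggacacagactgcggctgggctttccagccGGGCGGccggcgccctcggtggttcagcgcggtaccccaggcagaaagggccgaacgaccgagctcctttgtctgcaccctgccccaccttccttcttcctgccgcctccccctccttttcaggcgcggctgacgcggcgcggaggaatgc
The Epcam window held 2 matches to CAGGTG, 1 on each strand, and 1 GC box, and the Itgb1 window held 1 GC box and no match to CAGGTG. Of 32851 promoter windows of this length, 17.2% held CAGGTG on either strand and 32.7% held GGGCGG. These are letter matches, not sites of binding.

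Cd24a, the heat stable antigen by which luminal cells are sorted, passed the test in 1 of the 6 comparisons of N. Cd24a (ENSMUSG00000047139) lies on mouse chromosome 10 from 43578284 to 43584265, plus strand, in GRCm38. N held 432, 372 and 426 CPM in D542G mice and 586, 348 and 371 in Y541S mice, where library 1 was highest. Library 1 of Y541S N overlapped ML, and the other 5 N libraries lay near or below the lowest luminal libraries. With giredestrant, ML held 533, 539.8 and 584 CPM and 622, 511 and 482, LP 491, 503 and 537 and 468, 469 and 412, and Basal 316, 420.1 and 295 and 313, 244 and 251. N was higher than Basal in Y541S mice, by a log2 ratio of 0.70 (SE 0.18, adjusted p = 0.00405), a call that ended without Y541S giredestrant N library 1 (0.41). In D542G mice that ratio was 0.28 (SE 0.18, adjusted p = 0.261). No comparison of N with ML or LP passed for Cd24a, with log2 ratios of -0.41 to -0.02. In ML with vehicle, the average CPM of Cd24a was 615 ± 100.2 in WT, 618 ± 57.7 in D542G, 609 ± 127 in Y541S, and in Basal 130.0 ± 31.1 in WT, 177 ± 20.1 in D542G, 185 ± 38.2 in Y541S. Giredestrant groups averaged 483 ± 92.1 in WT, 552 ± 27.8 in D542G, 538 ± 73.97 in Y541S for ML, 517 ± 36.2 in WT, 510.3 ± 23.7 in D542G, 450.0 ± 32.6 in Y541S for LP and 232 ± 115 in WT, 343 ± 67.2 in D542G, 269.6 ± 38.04 in Y541S for Basal (± SD, n = 3 each). In no step of the order did the libraries of neighbouring groups separate.

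Itgb3 set N apart from LP and Basal cells, the sorted populations in which it was most abundant. Itgb3 (ENSMUSG00000020689) lies on mouse chromosome 11 from 104608000 to 104670476, plus strand, in GRCm38. N held 3.32, 4.61 and 4.19 CPM in D542G mice and 2.97, 4.65 and 3.15 in Y541S mice. LP held 22.2, 17.4 and 14.99 CPM in D542G mice and 40.1, 47.5 and 27.01 in Y541S mice, and Basal 50.97, 42.1 and 71.8 and 128, 117 and 116. ML held 1.41, 2.45 and 4.51 CPM and 3.70, 10.3 and 7.71, around the N values in both genotypes. Every LP and Basal library lay above every N library. N was lower than LP, at a log2 ratio of -2.14 (SE 0.37, adjusted p = 2.45e-04) in D542G mice and -3.38 (SE 0.38, adjusted p = 6.39e-06) in Y541S mice, and lower than Basal, at -3.74 (SE 0.39, adjusted p = 2.21e-06) and -5.06 (SE 0.41, adjusted p = 5.63e-08). Without Y541S LP library 1 the Y541S ratio to LP was -3.33. The ratios to ML, 0.57 (adjusted p = 0.297) and -0.99 (adjusted p = 0.0783), did not pass. With vehicle, the mean CPM in ML was 3.90 ± 1.84 in WT, 4.74 ± 1.14 in D542G, 3.04 ± 0.528 in Y541S mice, and in Basal 89.9 ± 21.5 in WT, 107 ± 27.4 in D542G, 117 ± 16.5 in Y541S. With giredestrant the means were 2.50 ± 1.31 in WT, 2.79 ± 1.58 in D542G, 7.22 ± 3.31 in Y541S for ML, 23.4 ± 12.5 in WT, 18.2 ± 3.70 in D542G, 38.2 ± 10.4 in Y541S for LP and 79.8 ± 1.32 in WT, 54.9 ± 15.2 in D542G, 120.2 ± 6.62 in Y541S for Basal (± SD, n = 3 each). The order of the groups ran Basal, LP, then ML and N together. The lowest LP group, D542G, lay above the highest ML group, Y541S with giredestrant, with no overlap, and D542G giredestrant Basal, the lowest Basal group, lay below WT giredestrant Basal with no overlap.

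Itga2, the collagen-binding chain, was lower in N than in LP and Basal cells of Y541S mice, and passed no test in N of D542G mice. Itga2 (ENSMUSG00000015533) lies on mouse chromosome 13 from 114833081 to 114932100, minus strand, in GRCm38. N held 43.6, 26.98 and 17.5 CPM in D542G mice and 11.04, 22.8 and 15.02 in Y541S mice. LP held 45.1, 43.6 and 22.6 CPM and 35.95, 44.05 and 37.1 in the same genotypes, and Basal 23.1, 22.9 and 33.3 and 52.05, 56.1 and 79.6. N overlapped LP and Basal in D542G mice, and lay below every LP and Basal library in Y541S mice. In Y541S mice N was lower than LP, at a log2 ratio of -1.23 (SE 0.33, adjusted p = 0.0113), and lower than Basal, at -1.93 (SE 0.34, adjusted p = 1.84e-04). The call against LP ended without Y541S giredestrant N library 1 (-1.03). In D542G mice no comparison of N passed, with log2 ratios of -0.31 to 0.17. The difference between the N populations themselves, -0.85 (SE 0.33, adjusted p = 0.114) for Y541S over D542G, did not pass either. In ML with vehicle, the average CPM of Itga2 was 15.6 ± 3.11 in WT, 16.1 ± 0.83 in D542G, 11.98 ± 3.42 in Y541S, and in Basal 27.7 ± 6.87 in WT, 47.6 ± 19.8 in D542G, 52.3 ± 9.75 in Y541S. Giredestrant groups averaged 29.97 ± 14.6 in WT, 30.1 ± 10.2 in D542G, 25.1 ± 3.29 in Y541S for ML, 46.3 ± 5.52 in WT, 37.1 ± 12.6 in D542G, 39.04 ± 4.38 in Y541S for LP and 44.4 ± 17.7 in WT, 26.4 ± 5.94 in D542G, 62.6 ± 14.9 in Y541S for Basal (± SD, n = 3 each). No neighbouring groups separated.

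Cd44, the hyaluronan receptor, was lower in N than in Basal cells of Y541S mice and overlapped LP and ML in both genotypes. Cd44 (ENSMUSG00000005087) lies on mouse chromosome 2 from 102811141 to 102901665, minus strand, in GRCm38. N held 302, 211 and 220.1 CPM in D542G mice and 82.4, 175 and 144 in Y541S mice. Basal held 267, 312 and 294 CPM and 279.9, 283 and 312, LP 232, 285 and 201 and 133, 165 and 185, and ML 145, 219 and 130.3 and 57.8, 101 and 143. N was lower than Basal in Y541S mice, at a log2 ratio of -1.11 (SE 0.28, adjusted p = 0.00414), with no overlap. In D542G mice the ratio to Basal was -0.23 (SE 0.28, adjusted p = 0.591) and did not pass, and neither did any ratio of N to ML or LP, -0.24 to 0.60 over both genotypes. Without giredestrant, the mean CPM was 56.8 ± 5.79 in WT, 89.6 ± 15.2 in D542G, 73.2 ± 5.49 in Y541S for ML and 204 ± 26.2 in WT, 262 ± 33.3 in D542G, 258 ± 20.3 in Y541S for Basal. After giredestrant the averages were 119 ± 35.98 in WT, 165 ± 47.4 in D542G, 100.4 ± 42.4 in Y541S for ML, 195 ± 5.25 in WT, 239 ± 42.2 in D542G, 161 ± 26.02 in Y541S for LP and 247 ± 31.3 in WT, 291 ± 22.4 in D542G, 292 ± 17.97 in Y541S for Basal (± SD, n = 3 each). The libraries of neighbouring groups separated in 1 of 16 steps, between vehicle ML of Y541S and of WT mice.

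Set against each other, the N populations of the mutants gave no call among these genes. None of the 8 members was called between Y541S and D542G N in edgeR's quasi-likelihood test (of all genes, 4.13% higher and 5% lower were). An unadjusted p under 0.05 was reached by 2 members and by 4522 of the 18247 genes tested. DESeq2 called 1 member, Cd44. The genes called in all, 1665, fell to 921, 869 and 556 without D542G N library 1, 2 and 3 and to 484 without Y541S N library 1. For Cd44 the log2 ratio of Y541S to D542G was -0.86 (SE 0.28, adjusted p = 0.0568), and for Itgb4 it was -0.11 (adjusted p = 0.829). Basal markers moved with the genotype of N: they summed to 14470.3, 11380.5 and 13542 CPM in D542G N and 2103, 4423 and 2968 in Y541S N. Their part in the members' values was not tested.

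**Figure D2:**
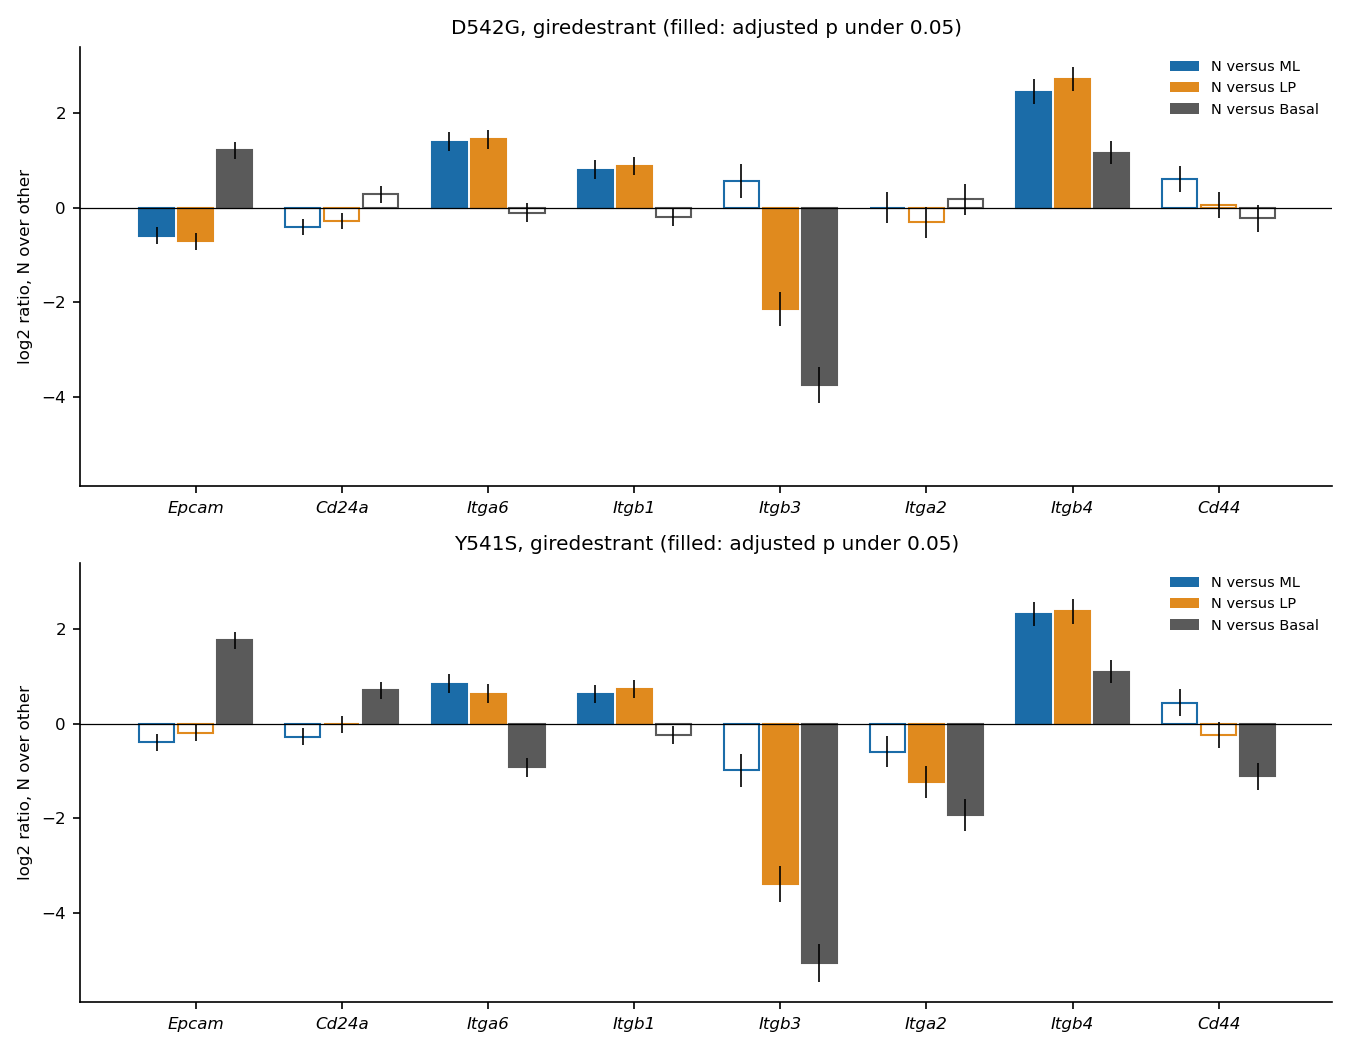
Log2 ratio of N to ML (blue), LP (orange) and Basal (grey) for the 8 members, upper plot D542G and lower plot Y541S, all with giredestrant. Bars are edgeR estimates with SE as error bars, filled where the adjusted p is under 0.05; only Itgb4 is filled in all 6 comparisons.

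Epcam with Itga6 and Cd24a with Itgb1 are the pairs commonly plotted against each other in mammary sorts, and their ratio within a library does not depend on the scaling of that library. The log2 ratio of Epcam to Itga6 counts was 1.2 to 1.83 in the 6 N libraries (median 1.67). It was -2.18 to 0.79 in 18 Basal libraries, 2.08 to 3.83 in 18 ML libraries and 1.70 to 4.11 in 9 LP libraries. N therefore lay between Basal and ML with no overlap with either, and overlapped LP through Y541S LP library 1, the LP library with the most basal and fibroblast markers. By genotype the N means were 1.68 ± 0.04 for D542G and 1.42 ± 0.36 for Y541S (SD, n = 3). The ratio of Cd24a to Itgb1 was -2.05 to -1.07 in N, below all ML (-0.68 to 0.28) and LP libraries (-0.73 to 0.33). It overlapped Basal (-3.42 to -1.16), whose highest libraries were D542G giredestrant Basal library 2, one of the libraries with luminal markers, and WT giredestrant Basal library 2. Since counts are not per length, the sign of a ratio has no meaning, and only its differences between libraries are read.

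**Figure D3:**
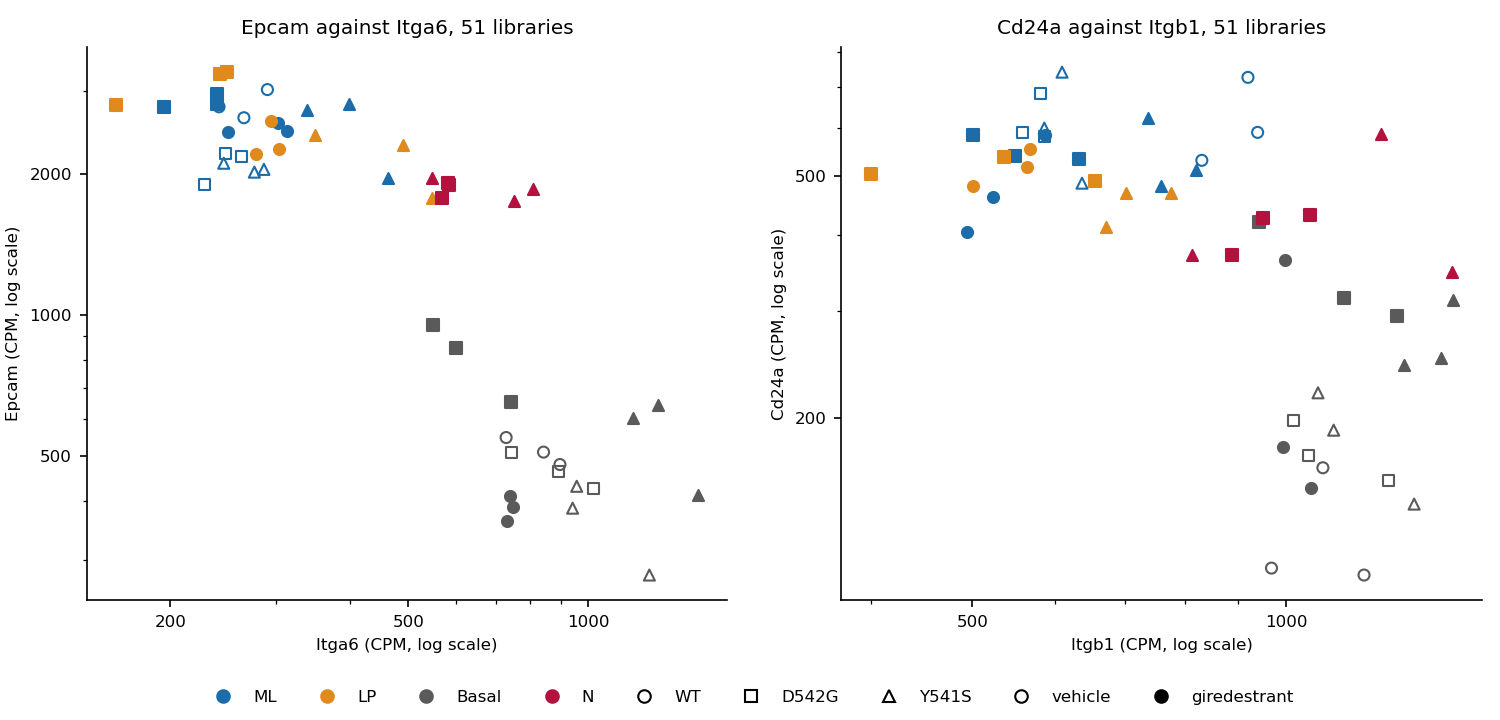
Epcam against Itga6 (left) and Cd24a against Itgb1 (right), CPM on log scales, 1 point for each of 51 libraries; colour gives the population, shape the genotype, and filled symbols giredestrant. The 6 N libraries lie at or above the highest luminal libraries in Itga6, at 549 to 809 CPM. In Epcam they lie at 1752 to 1956 CPM, above all Basal libraries and below the ML and LP medians (2519 and 2419).

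In WT glands with giredestrant, where N was not analysed here, most members differed between luminal and Basal cells, and 1 of 8 between ML and LP. Between LP and ML, 1 member was called, Itgb3, against 0.0604% higher and 0.00604% lower among all genes. Itgb3 was higher in LP (17.9, 37.6 and 14.6 CPM) than in ML (3.96, 2.11 and 1.44 CPM), by a log2 ratio of 3.24 (SE 0.42, adjusted p = 0.0399). That call ended without any 1 of the 3 WT giredestrant ML libraries or WT giredestrant LP library 1 (2.96 to 3.73), and no member was called without those libraries. With the sample number as a block, which pairs these libraries, Itgb3 stayed the only member called while the genes called in all rose from 11 to 307. Between LP and Basal, 6 members were called (of all genes, 18.7% higher and 19.9% lower): Epcam (2.62) and Cd24a (1.17) were higher in LP, and Itga6 (-1.32), Itgb1 (-0.88), Itgb3 (-1.76) and Itgb4 (-1.002) lower, as log2 ratios. Between ML and Basal, 7 were called (20.5% higher and 20.9% lower), Epcam (2.69) and Cd24a (1.05) higher in ML and Itga6 (-1.36), Itgb1 (-0.92), Itgb3 (-4.998), Itgb4 (-0.96) and Cd44 (-1.05) lower. The Cd24a calls ended without WT giredestrant Basal library 1 (1.02) against LP, and without WT giredestrant Basal library 1 or 3 or WT giredestrant ML library 2 (0.82 to 0.91) against ML. With vehicle, as the mean of the 3 genotypes, all 8 members were called between ML and Basal (of all genes, 32.5% higher and 35.5% lower). There the log2 ratio was 2.39 for Epcam, 1.94 for Cd24a, -1.80 for Itga6, -0.70 for Itgb1, -1.19 for Itgb4, -1.49 for Itga2, -4.75 for Itgb3 and -1.72 for Cd44. The highest adjusted p of the 8 was 7.39e-07 in edgeR's quasi-likelihood test.

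In ML cells of WT mice with giredestrant, Cd44 rose and the laminin receptor chains Itgb1 and Itgb4 fell against vehicle. Cd44 went from 60.5, 50.1 and 59.6 CPM with vehicle to 138, 142 and 77.9, a log2 ratio of 1.03 (SE 0.28, adjusted p = 0.00929). Itgb1 went from 939, 919 and 830.2 CPM to 494, 587 and 524, a log2 ratio of -0.78 (SE 0.11, adjusted p = 8.98e-05). Itgb4 went from 147, 136 and 129 CPM to 90.4, 81.5 and 68.8, a log2 ratio of -0.81 (SE 0.14, adjusted p = 5.63e-04). No library of one treatment overlapped the other for these 3 genes, which describes 3 libraries a side and is not a test. How many of all genes separate likewise is not given. Endothelial markers moved with the treatment, at 861 to 1006 CPM with vehicle and 183 to 249.6 with giredestrant. Luminal progenitor markers summed to 1259, 1758 and 1672 CPM with vehicle and 2593, 3608 and 1200 with giredestrant. Among the giredestrant libraries, these markers, Cd44 and Itga2 were lowest in library 3. The part of both lists in the members' values was not tested. Itga2 was the only other member called in WT ML, at 0.90 (SE 0.33, adjusted p = 0.0447), with overlapping libraries and a call that ended without any 1 of the 3 WT vehicle ML libraries or WT giredestrant ML library 1 or 2 (0.55 to 1.08). Of all genes, 17.1% higher and 17% lower were called in this comparison. In D542G ML, Cd44 at 0.81 (SE 0.27, adjusted p = 0.0475) and Epcam at 0.38 (SE 0.13, adjusted p = 0.0416) were called (of all genes, 9.34% higher and 11.3% lower). Luminal progenitor markers moved with the treatment in D542G ML, at 1124 to 1542 CPM with vehicle and 3042 to 4882 with giredestrant, and their part was not tested. The Cd44 call ended without any 1 of the 3 D542G vehicle ML libraries or D542G giredestrant ML library 1 or 2 (0.56 to 0.94), and the Epcam call without any 1 of the 3 D542G vehicle ML libraries or any 1 of the 3 D542G giredestrant ML libraries (0.32 to 0.42). In Y541S ML, Itga2 at 0.98 (SE 0.33, adjusted p = 0.039) and Itga6 at 0.48 (SE 0.13, adjusted p = 0.0166) were called (of all genes, 12% higher and 13% lower). The Itga2 call ended without Y541S vehicle ML library 1 or 2 or any 1 of the 3 Y541S giredestrant ML libraries (0.80 to 1.05), and the Itga6 call without Y541S vehicle ML library 3 (0.46) or Y541S giredestrant ML library 1 (0.34). Y541S giredestrant ML libraries 1 and 2 held 482 and 433 CPM of endothelial markers against 165 in library 3. Without both, 1 giredestrant library was left, and the log2 ratio was 0.96 for Itga2 and 0.25 for Itga6. Basal markers in Y541S ML summed to 99.5 to 196 CPM with vehicle and 237 to 659.6 with giredestrant, and their part was not tested.

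In Basal cells, giredestrant had its clearest change in D542G mice, on Epcam and Itgb3. Epcam went from 509, 463 and 426 CPM to 852, 952 and 651, a log2 ratio of 0.74 (SE 0.18, adjusted p = 0.00789). Itgb3 went from 85.5, 98.03 and 138 CPM to 50.97, 42.1 and 71.8, a log2 ratio of -1.03 (SE 0.21, adjusted p = 0.00359). Neither gene overlapped between treatments. Cd24a at 0.89 (SE 0.27, adjusted p = 0.0211), Itga6 at -0.55 (SE 0.16, adjusted p = 0.02) and Itga2 at -0.91 (SE 0.33, adjusted p = 0.0494) were also called, against 12.6% higher and 15.6% lower among all genes. The Cd24a call ended without D542G vehicle Basal library 2 or 3 or D542G giredestrant Basal library 2 (0.75 to 0.89), the Itga6 call without D542G vehicle Basal library 2 or 3 or D542G giredestrant Basal library 1 or 2 (-0.53 to -0.43) and the Itga2 call without D542G vehicle Basal library 2 or 3 or D542G giredestrant Basal library 1 or 2 (-0.91 to -0.59). Giredestrant libraries 1 and 2 of this group held the luminal markers named above, with 578 and 501 CPM of progenitor markers against 169.9 in library 3. Without both, 1 giredestrant library was left, and the log2 ratio was 0.46 for Epcam and -0.60 for Itgb3. That library still held 264 CPM of mature luminal markers. D542G vehicle Basal held 110 to 190 CPM of these and 51.1 to 148 of progenitor markers. Endothelial, pericyte and adipocyte markers summed to 248 to 512, 257 to 433 and 219 to 510 CPM with giredestrant. With vehicle they were 124 to 156, 109 to 196 and 51.9 to 162 CPM, and the part of these lists was not tested. In WT Basal cells, Itgb4 fell from 303, 254 and 251 CPM to 157, 139 and 173, a log2 ratio of -0.83 (SE 0.22, adjusted p = 0.0242), the only member called (of all genes, 4.54% higher and 6.53% lower), and that call ended without WT vehicle Basal library 1 or WT giredestrant Basal library 1 or 2 (-0.83 to -0.74). In Y541S Basal cells, Epcam alone was called, at 0.56 (SE 0.18, adjusted p = 0.0464), with overlapping libraries, against 8.15% higher and 6.96% lower among all genes. That call ended without Y541S vehicle Basal library 2 or 3 or Y541S giredestrant Basal library 2 or 3 (0.37 to 0.61). Luminal progenitor markers in Y541S Basal summed to 49.6 to 109 CPM with vehicle and 216 to 515 with giredestrant, and their part in the Epcam value was not tested.

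**Figure D4:**
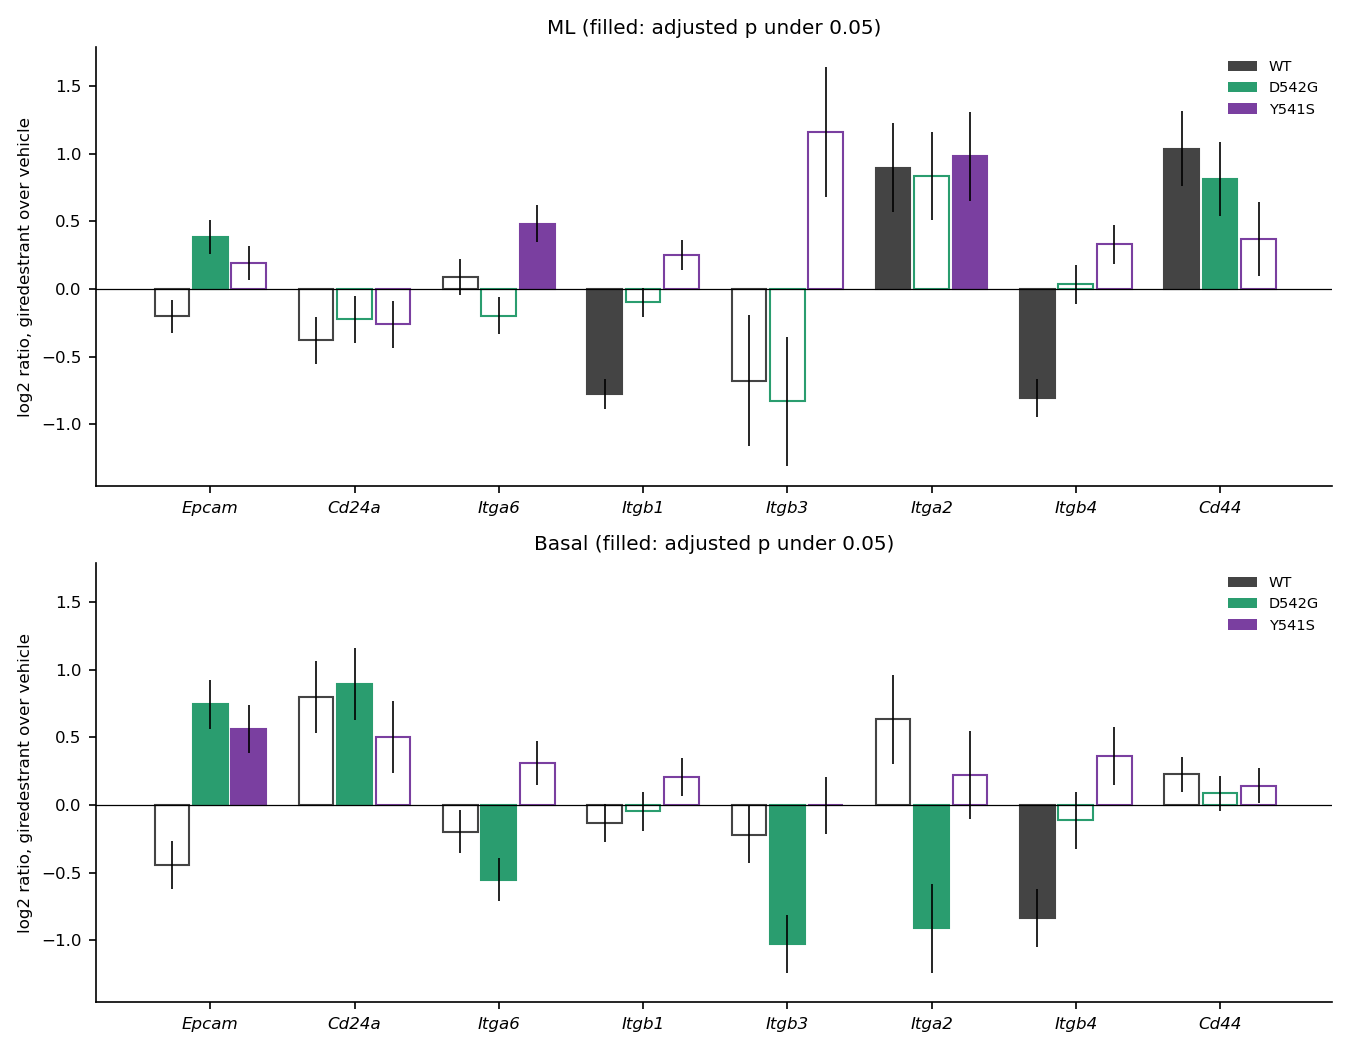
Log2 ratio of giredestrant to vehicle for the 8 members in ML (upper plot) and Basal cells (lower plot), WT grey, D542G green, Y541S purple. Bars are edgeR estimates with SE as error bars, filled where the adjusted p is under 0.05; in WT ML, Itgb1 and Itgb4 lie at -0.78 and -0.81 and Cd44 at 1.03.

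Between genotypes, ML cells of WT mice with vehicle held more Epcam, Itgb1 and Itgb4 RNA than those of either mutant with TMM scaling. Itgb1 was 939, 919 and 830.2 CPM in WT, 581, 586 and 559 in D542G and 586, 609.6 and 637 in Y541S mice, log2 ratios of -0.61 (SE 0.11, adjusted p = 0.00151) and -0.52 (SE 0.11, adjusted p = 0.00799). Itgb4 was 147, 136 and 129 CPM in WT, 102, 98.8 and 93.8 in D542G and 71.7, 90.3 and 79.7 in Y541S mice, a log2 ratio of -0.45 (SE 0.14, adjusted p = 0.0349) and -0.73 (SE 0.14, adjusted p = 0.00561). Epcam was 2782, 3028 and 2636 CPM in WT, 2217, 1898 and 2176 in D542G and 2018, 2045 and 2108 in Y541S mice, a log2 ratio of -0.40 (SE 0.13, adjusted p = 0.0368) and -0.42 (SE 0.13, adjusted p = 0.0438). For these 3 members WT did not overlap either mutant, which describes 3 libraries a group and is not a test. The share of all genes that separate in this way is not given, so no weight is put on it. Endothelial markers moved with them, at 861 to 1006 CPM in WT, 268 to 295 in D542G and 224 to 369 in Y541S mice. Mature luminal markers did too, at 3675 to 4739, 1164 to 1624 and 1742 to 2903 CPM. The part of these lists was not tested. Of all genes, 9.37% higher and 10.2% lower were called for D542G and 4.79% higher and 6.08% lower for Y541S. The scaling weighed on these values. With library totals in place of TMM, the median log2 ratio of all genes moved from 0.06 to 0.43 for D542G and from 0.03 to 0.32 for Y541S, and from 0.08 to 0.57 for giredestrant in WT ML. On that scale, 1 member was called for each mutant, Cd44 at 1.05 for D542G and Itgb4 at -0.45 for Y541S. Itgb1 was then -0.24 and -0.23 and Epcam -0.03 and -0.13, not called. For giredestrant in WT ML, Itgb1 was then -0.29 (adjusted p = 0.04) and Itgb4 -0.32 (adjusted p = 0.0854). The D542G calls also ended without WT vehicle ML library 1 or 2 or any 1 of the 3 D542G vehicle ML libraries (-0.43 to -0.33) for Epcam and without WT vehicle ML library 1 or 2 or any 1 of the 3 D542G vehicle ML libraries (-0.49 to -0.42) for Itgb4. The Y541S call for Epcam ended without any 1 of the 3 WT vehicle ML libraries or any 1 of the 3 Y541S vehicle ML libraries (-0.48 to -0.39).

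With giredestrant, no member was called between D542G and WT ML (of all genes, 1.85% higher and 0.751% lower) by edgeR's quasi-likelihood test or by DESeq2. An unadjusted p under 0.05 was reached by 2 members and by 3282 of the 17181 genes tested. Between Y541S and WT ML, 3 were higher (of all genes, 8.38% higher and 6.75% lower). Itgb1 was 738, 819 and 759 CPM in Y541S against 494, 587 and 524 in WT, a log2 ratio of 0.51 (SE 0.11, adjusted p = 0.0083). Itga6 at 0.45 (SE 0.13, adjusted p = 0.0353) and Itgb3 at 1.51 (SE 0.48, adjusted p = 0.0466) were called too. With library totals, Itgb1 alone stayed called, at 0.45. The Itga6 call ended without any 1 of the 3 WT giredestrant ML libraries or Y541S giredestrant ML library 1 or 2 (0.31 to 0.51), and the Itgb3 call without WT giredestrant ML library 2 or 3 or Y541S giredestrant ML library 2 or 3 (1.19 to 1.46). Without Y541S ML libraries 1 and 2, which held endothelial markers, 1 Y541S library was left. Itgb1 was then at 0.49, Itga6 at 0.22 and Itgb3 at 1.62. In Basal cells with giredestrant, Epcam was higher in D542G than in WT mice (411, 390.0 and 363 CPM in WT), by 1.05 (SE 0.18, adjusted p = 0.00541), the only member called (of all genes, 2.53% higher and 2.44% lower). Without D542G Basal libraries 1 and 2, with 1 D542G library left, it was 0.76. Itga6 was higher in Y541S than in WT Basal cells, 1526, 1306 and 1187 against 741, 748 and 732 CPM, a log2 ratio of 0.82 (SE 0.16, adjusted p = 0.00482), again the only member called (7.59% higher and 6.36% lower). Beside it, fibroblast markers summed to 1589 to 2167 CPM in Y541S and 657 to 1076 in WT Basal, and luminal progenitor markers to 216 to 515 and 104 to 186. Endothelial markers summed to 260.1 to 659 and 197 to 271 CPM, which overlap, and the part of these lists was not tested. With vehicle, no member was called between either mutant and WT Basal cells (of all genes, 0.0524% higher and 0.00582% lower for D542G and 0.111% higher and 0.0466% lower for Y541S) in edgeR's quasi-likelihood test. DESeq2 called none either, and 2 and 4 members had an unadjusted p under 0.05, as had 1650 and 2529 of the 17173 genes tested. In LP cells with giredestrant, likewise none was called by either tool (of all genes, 0.0302% higher and 0% lower for D542G and 2.43% higher and 1.12% lower for Y541S). There 0 and 1 members had an unadjusted p under 0.05, as had 2677 and 3677 of the 16569 genes tested.

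Whether giredestrant acted differently by genotype was tested as an interaction. In ML, the effect on Itgb1 and Itgb4 differed from WT in both mutants, where neither gene passed in the comparison of giredestrant with vehicle. For Itgb1 the difference in log2 effect, mutant minus WT, was 0.68 (SE 0.15, adjusted p = 0.0174) for D542G and 1.03 (SE 0.15, adjusted p = 0.00218) for Y541S. For Itgb4 it was 0.84 (SE 0.20, adjusted p = 0.0225) and 1.13 (SE 0.20, adjusted p = 0.0056). Of all genes, 4.18% higher and 2.39% lower were called for D542G and 3.98% higher and 1.8% lower for Y541S. The D542G differences were 0.24 and 0.40 with library totals and not called, while Itga6 then was, at -0.72. Both contrasts rest on WT vehicle ML. Endothelial markers in WT ML summed to 861 to 1006 CPM with vehicle and 183 to 249.6 with giredestrant. They were 268 to 295 with vehicle and 197 to 382 with giredestrant in D542G ML and 224 to 369 and 165 to 482 in Y541S ML, and their part was not tested. Without Y541S giredestrant ML libraries 1 and 2, the Y541S differences were 1.01 and 0.92, with 1 library of that group left. The D542G call for Itgb1 ended without WT giredestrant ML library 1 (0.62), and that for Itgb4 without WT vehicle ML library 1 or D542G vehicle ML library 2 or 3 or D542G giredestrant ML library 1 or 2 (0.73 to 0.85). In Basal cells, the effect on Epcam differed from WT by 1.19 (SE 0.26, adjusted p = 0.0455) in D542G mice (of all genes, 0.239% higher and 0.39% lower) and by 1.004 (SE 0.26, adjusted p = 0.0356) in Y541S mice (2.75% higher and 1.71% lower), and that on Itgb4 by 1.20 (SE 0.30, adjusted p = 0.0355) in Y541S mice. The D542G call for Epcam ended without WT vehicle Basal library 2 or 3 or D542G vehicle Basal library 2 or 3 or WT giredestrant Basal library 1 or 3 or D542G giredestrant Basal library 1 or 2 (1.10 to 1.26). Without D542G giredestrant Basal libraries 1 and 2 together, which leaves 1 library of that group, the difference was 0.91. The Y541S call for Epcam ended without any 1 of the 3 WT vehicle Basal libraries or Y541S vehicle Basal library 2 or 3 or any 1 of the 3 WT giredestrant Basal libraries or Y541S giredestrant Basal library 2 or 3 (0.82 to 1.06), and that for Itgb4 without WT vehicle Basal library 1 or 3 or Y541S vehicle Basal library 1 or 2 or WT giredestrant Basal library 1 or 2 or Y541S giredestrant Basal library 2 or 3 (1.02 to 1.26).

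N cells held more RNA of Lama3 and Lamb3, chains of the laminin that the pair of Itga6 and Itgb4 binds, than ML and LP cells did. Lama3 had log2 ratios of 3.60 and 3.56 to ML in D542G and Y541S mice and 4.52 and 2.22 to LP, all 4 called. Lamb3, the beta3 chain, had 2.49 and 2.17 to ML and 3.36 and 1.48 to LP, also called. Lama1, a chain of basement membrane laminin, was lower in N than in Basal by far more, at -5.35 and -6.50, than Lamb3, at -1.13 and -1.61. All 11 laminin chains were tested, beside a median log2 ratio of all genes between -0.03 and 0.02 in the 6 comparisons of N. Against ML, 4 higher and 0 lower in N of D542G mice and 5 higher and 1 lower in N of Y541S mice passed, with median log2 ratios of 0.78 and 0.53 over the list. Against LP, 4 higher and 1 lower passed in D542G mice (median 0.54) and 4 higher and 4 lower in Y541S mice (-0.07). Against Basal, 0 higher and 5 lower passed in D542G mice (median -1.05) and 0 higher and 9 lower in Y541S mice (-1.75). The shares of all genes called are those given with the members. Among 13 other matrix ligands and hyaluronan enzymes, all tested, Npnt was higher in N in all 6 comparisons. Npnt encodes nephronectin, a ligand of the integrin of Itga8 and Itgb1, and its log2 ratios ran from 1.04 against Y541S ML to 2.36 against D542G Basal. Has2, a hyaluronan synthase, was higher in N than in ML of D542G mice, at 4.02, and did not pass in Y541S mice, at 1.64. Col4a1 and Col4a2, the main type IV collagen chains, were lower in N than in Basal, at -2.45 and -2.68 in D542G mice and -5.90 and -5.45 in Y541S mice. Against ML, 5 higher and 0 lower in N of D542G mice and 4 higher and 0 lower in N of Y541S mice passed, with median log2 ratios of 1.20 and 0.51 over the list. Against LP, 5 higher and 0 lower passed in D542G mice (median 0.74) and 2 higher and 6 lower in Y541S mice (-1.20). Against Basal, 2 higher and 4 lower passed in D542G mice (median -0.73) and 2 higher and 8 lower in Y541S mice (-2.21).

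Among the other integrin subunits, Itgb6 and Itga3 were higher in N than in luminal cells of both genotypes. Itgb6, the epithelial partner of Itgav, had log2 ratios of 2.25 and 2.27 to ML, 2.15 and 1.995 to LP and 2.76 and 2.99 to Basal, all 6 called. It stood at 139.7 to 412 CPM in N, and 5 of 6 N libraries were above all 45 others. Itga3, an alpha chain for laminin, was higher in N than in ML, at 2.03 and 1.81, and did not pass against Basal, at 0.23 and -0.15. Itga1, Itga8 and Itga9, which bind collagen, nephronectin and tenascin, were lower in N than in Basal of both genotypes, Itga8 at -2.54 and -4.64. All 14 of these other subunits, which include Itga4, were tested. Against ML, 5 higher and 0 lower in N of D542G mice and 4 higher and 1 lower in N of Y541S mice passed, with median log2 ratios of 0.56 and 0.32 over the list. Against LP, 5 higher and 2 lower passed in D542G mice (median 0.66) and 4 higher and 4 lower in Y541S mice (-0.13). Against Basal, 1 higher and 4 lower passed in D542G mice (median -0.62) and 2 higher and 7 lower in Y541S mice (-0.94). Of a separate list of 7 leukocyte and platelet subunits, 5 were tested. None of them was higher in N in the 6 comparisons, and 3 were lower than in Basal of Y541S mice, with medians of -1.49 against LP and -1.62 against Basal there.

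Col17a1, the transmembrane collagen of hemidesmosomes, was near the Basal level in N of D542G mice. In N of Y541S mice its estimate was below Basal, though not called. It stood at 223 to 703 CPM in N, 0.985 to 30.9 in ML, 1.65 to 115 in LP and 246 to 899 in Basal over all libraries. Its log2 ratio was 4.58 and 4.45 to ML, called, and -0.06 and -1.04 to Basal, not called. Plec, the plectin that links Itgb4 to keratin filaments, was higher in N than in ML, at 0.97 and 1.30. Cd81, a tetraspanin that associates with integrins, was lower in N in all 6 comparisons, from -1.36 to -0.42. All 7 hemidesmosome and tetraspanin genes were tested. Against ML, 3 higher and 2 lower in N of D542G mice and 2 higher and 1 lower in N of Y541S mice passed, with median log2 ratios of 0.43 and 0.29 over the list. Against LP, 3 higher and 2 lower passed in D542G mice (median 0.09) and 3 higher and 2 lower in Y541S mice (0.57). Against Basal, 3 higher and 1 lower passed in D542G mice (median -0.06) and 2 higher and 1 lower in Y541S mice (0.20). Of 15 genes for integrin activation and the adhesion complex, all tested, Fermt1 and Fermt2, the epithelial and the mesenchymal kindlin that activate integrins, went apart. Fermt1 was higher in N than in ML, at 1.94 and 1.34, and lower than in Basal, at -0.84 and -1.03. Fermt2 was lower in N in all 6 comparisons, from -1.79 against Y541S Basal to -0.56 against Y541S ML. Against ML, 3 higher and 1 lower in N of D542G mice and 3 higher and 2 lower in N of Y541S mice passed, with median log2 ratios of 0.10 and 0.18 over the list. Against LP, 3 higher and 2 lower passed in D542G mice (median 0.15) and 3 higher and 2 lower in Y541S mice (0.13). Against Basal, 0 higher and 6 lower passed in D542G mice (median -0.34) and 1 higher and 10 lower in Y541S mice (-1.03).

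**Figure D5:**
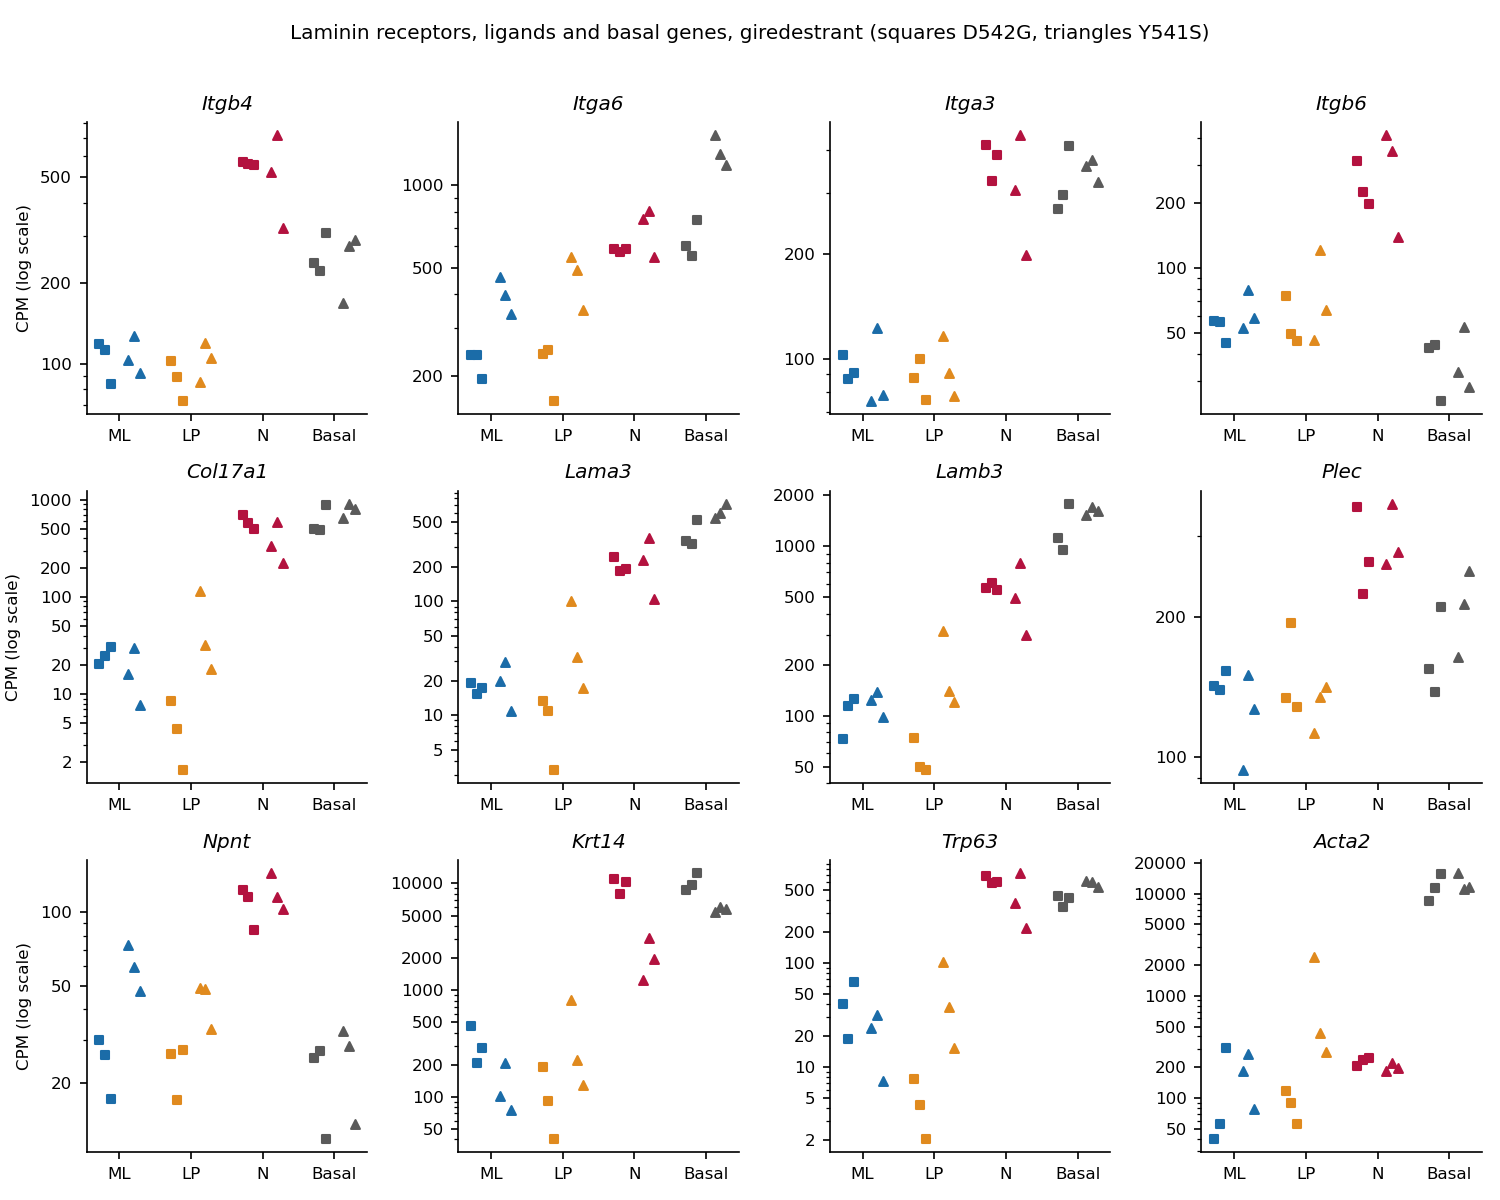
Levels (CPM, log scales) of laminin receptors, hemidesmosome genes, the laminin chains Lama3 and Lamb3, nephronectin and 3 basal genes in ML, LP, N and Basal libraries of D542G (squares) and Y541S mice (triangles) with giredestrant, 1 point a library. Col17a1 in N overlaps Basal, while Acta2 in N (182 to 243 CPM) lies far below Basal (8507 to 16686 CPM over all Basal libraries).

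Of 8 EpCAM and junction partners, 7 were tested. Cldn7, the claudin that binds EpCAM, was higher in N than in Basal, at 1.61 and 2.49, and lower than in ML of D542G mice, at -0.94. Cdh3, P-cadherin of basal cells, was higher in N than in ML, at 3.62 and 2.83, and did not pass against Basal, at -0.46 and -0.96. Against ML, 2 higher and 4 lower in N of D542G mice and 1 higher and 1 lower in N of Y541S mice passed, with median log2 ratios of -0.40 and -0.23 over the list. Against LP, 1 higher and 3 lower passed in D542G mice (median -0.47) and 1 higher and 1 lower in Y541S mice (0.07). Against Basal, 4 higher and 0 lower passed in D542G mice (median 0.47) and 5 higher and 0 lower in Y541S mice (0.80). All 5 genes for CD44 splicing and partners were tested. Esrp2, a splicing regulator of epithelial cells, was higher in N than in Basal, at 2.16 and 2.37, and Msn, the moesin that ties CD44 to actin, was higher than in ML, at 1.23 and 0.98. Against ML, 2 higher and 0 lower in N of D542G mice and 2 higher and 0 lower in N of Y541S mice passed, with median log2 ratios of 0.38 and 0.45 over the list. Against LP, 4 higher and 0 lower passed in D542G mice (median 0.65) and 3 higher and 0 lower in Y541S mice (0.82). Against Basal, 3 higher and 1 lower passed in D542G mice (median 0.66) and 3 higher and 0 lower in Y541S mice (0.81). Of 8 other surface markers used in mammary sorts, 7 were tested. Kit and Cd14, surface markers of luminal progenitors, were lower in N than in ML, Kit at -3.34 and -2.44 and Cd14 at -2.92 and -2.30, and neither passed against Basal. Against ML, 1 higher and 2 lower in N of D542G mice and 0 higher and 2 lower in N of Y541S mice passed, with median log2 ratios of -0.93 and -0.58 over the list. Against LP, 1 higher and 4 lower passed in D542G mice (median -1.27) and 0 higher and 4 lower in Y541S mice (-1.44). Against Basal, 3 higher and 0 lower passed in D542G mice (median 0.71) and 2 higher and 0 lower in Y541S mice (-0.06). Of the genes by which blood and vessel cells are excluded, Ptprc and Pecam1 were tested. Pecam1 had log2 ratios of 0.89 and -1.29 to ML, and Ptprc -0.93 and -2.11. Against ML, 0 higher and 0 lower in N of D542G mice and 0 higher and 1 lower in N of Y541S mice passed, with median log2 ratios of -0.02 and -1.70 over the list. Against LP, 1 higher and 0 lower passed in D542G mice (median 1.34) and 0 higher and 1 lower in Y541S mice (-1.19). Against Basal, 0 higher and 0 lower passed in D542G mice (median -0.53) and 0 higher and 2 lower in Y541S mice (-2.61). Part of the exonic bases lies within the span of other genes, introns included and on either strand. This holds for Lamb3 (20.7%), Col4a1 (23.7%), Itga9 (49.02%), Esrp2 (21.4%), Cd81 (13.96%) and Has2 (12.9%). Their values are therefore uncertain, to an extent that was not tested.

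Beside the members, the keratins and Trp63 of basal cells were higher in N than in ML, while the contractile genes of myoepithelial cells were not. Krt5 had log2 ratios of 3.90 and 3.43 to ML, Krt14 4.96 and 4.09, and Trp63, the basal transcription factor p63, 3.93 and 4.43. Acta2, smooth muscle actin, was lower in N than in Basal, at -5.68 and -5.99, as were Myh11, Cnn1, Mylk and Oxtr in both genotypes. Against ML, 3 higher and 0 lower in N of D542G mice and 3 higher and 0 lower in N of Y541S mice passed, with median log2 ratios of 0.84 and 0.52 over the list. Against LP, 3 higher and 0 lower passed in D542G mice (median 1.59) and 2 higher and 3 lower in Y541S mice (-1.41). Against Basal, 0 higher and 5 lower passed in D542G mice (median -4.49) and 0 higher and 6 lower in Y541S mice (-5.01). Esr1 was higher in N than in ML, at 1.57 and 1.44, and than in Basal, at 2.09 and 3.01. Foxa1, a luminal transcription factor, was higher than in Basal, at 3.08 and 3.39. Against ML, 2 higher and 0 lower in N of D542G mice and 3 higher and 0 lower in N of Y541S mice passed, with median log2 ratios of 0.17 and 0.43 over the list. Against LP, 4 higher and 1 lower passed in D542G mice (median 0.06) and 5 higher and 0 lower in Y541S mice (1.61). Against Basal, 6 higher and 0 lower passed in D542G mice (median 1.61) and 8 higher and 0 lower in Y541S mice (2.97). Of 8 luminal progenitor markers, 6 were tested, and 5 or 6 of them were lower in N in each comparison with ML or LP, with none called against Basal. Against ML, 0 higher and 6 lower in N of D542G mice and 0 higher and 5 lower in N of Y541S mice passed, with median log2 ratios of -3.25 and -2.51 over the list. Against LP, 0 higher and 5 lower passed in D542G mice (median -3.08) and 0 higher and 5 lower in Y541S mice (-2.79). Against Basal, 0 higher and 0 lower passed in D542G mice (median -0.05) and 0 higher and 0 lower in Y541S mice (-0.07). Of 8 fibroblast markers, the most calls were against LP of Y541S mice, the libraries that stood apart in them. Against ML, 1 higher and 0 lower in N of D542G mice and 0 higher and 0 lower in N of Y541S mice passed, with median log2 ratios of 0.13 and -1.39 over the list. Against LP, 0 higher and 3 lower passed in D542G mice (median -2.15) and 0 higher and 8 lower in Y541S mice (-5.58). Against Basal, 0 higher and 2 lower passed in D542G mice (median -0.30) and 0 higher and 7 lower in Y541S mice (-3.00). Against D542G ML, the endothelial, immune, pericyte, adipocyte and erythroid lists gave 0, 0, 1, 0 and 0 higher and no lower calls. Against Y541S Basal they gave 7, 6, 6, 4 and 0 lower calls. The part of these cells in the members' values was not tested.

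Over the 17 groups, Epcam and Cd24a varied together and opposite to Itga6. As a description over group means of log2 CPM, which share libraries and populations, Pearson's r was 0.93 for Epcam with Cd24a, -0.87 for Epcam with Itga6 and 0.92 for Itga6 with Itgb1. Itgb4 had r = 0.81 with Itgb1 and 0.24 with Itgb3. Among 10599 genes with at least 10 CPM in a group, those most like Epcam were Rab25 (0.99), Bik (0.99) and Crb3 (0.99), and those most like Cd24a were Epb41l5 (0.97), Amt (0.97) and Igsf5 (0.96), with r in parentheses. Itga6 was most like Ppfibp1 (0.98), Lclat1 (0.98) and Plcg1 (0.97). For Itgb1 they were Tnik (0.97), Cdcp1 (0.97) and Kremen1 (0.96), and for Itgb4 Gcnt4 (0.95), Ppp2r1b (0.95) and Map4k2 (0.93). Itgb3 was most like Asphd2 (0.97), Emid1 (0.96) and Col9a2 (0.95), Itga2 most like Dmd (0.97), Ehd3 (0.91) and Sord (0.89), and Cd44 most like Rhbdl3 (0.94), Pde4b (0.94) and Il7 (0.93).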

How the data were processed

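Gene counts of 51 RNA-seq libraries from sorted mouse mammary cells were used, 17 groups of 3 named from the sample labels. Per the labels' protocols, RNA was extracted with a Qiagen RNeasy Micro Plus kit and libraries were made with Nextera XT, which does not mark the strand. Each deposited table holds a whole-number count per gene that the authors made, per the file headers, and the other columns were not used. GRCm38 is named in the submitters' processing notes, with no aligner, counting tool or gene set named in what was used here. Positions, symbols and the shares of exonic bases that lie within the span of other genes come from the GRCm38 annotation, and 52403 of 52636 identifiers matched a symbol. Precision is judged from the spread between libraries. Within groups, libraries differed by 21.9 to 283 times the sampling noise (chi-square per degree of freedom), so no library was counted as a duplicate. Whether libraries of a group come from separate mice is stated only as biological replicates, and which libraries share a mouse is not given.

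Levels are CPM, scaled by TMM across the 51 libraries. Differences were tested with edgeR 4.0.16 (quasi-likelihood test, limma 3.58.1, R 4.3.3) on the counts, after edgeR's filter on low counts by group, in separate fits of the giredestrant mutants, giredestrant WT, vehicle, ML, Basal and LP libraries. Over 31 comparisons, p-values were adjusted by Benjamini-Hochberg over all genes tested in each, and called under 0.05. The test was checked on simulated counts. The members and the lists of related genes and markers were chosen with earlier results of these data known. All 8 members are named, and of each list up to 4 called genes with the largest log2 ratio in a comparison. Some listed genes are not reported here. Markers are counted whole with their defining genes named, and likeness names the 3 genes with the highest correlation over group means of at least 10 CPM in 1 group. Alternatives were library totals in place of TMM, no filter, DESeq2 1.42.0, each library left out, and the sample number as a block. Leaving out pairs of libraries that hold markers of other cells was added after seeing the data. Such a fit keeps 1 library in the group, so a call lost there is not credited to those markers. To check the pairing, deviations of same-numbered libraries from their group means were correlated. Of 18 pairs of groups of 1 genotype and treatment, all 3 correlations were over 0.1 in 12, among them all pairs of Y541S groups with giredestrant and WT ML with LP, and in none of the pairs of D542G N (range over all pairs -0.01 to 0.44). Promoter sequences are RefSeq's for GRCm38.p6, and a sequence was at hand for 4 of the 8 members.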

Additional observations from a re-analysis of the deposited data

Results flagged for a closer look

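The effect of giredestrant differed between genotypes for 3 members, by the interaction test in edgeR's quasi-likelihood model. In ML cells, the log2 effect in mutant minus that in WT mice was 0.68 for Itgb1 and 0.84 for Itgb4 with D542G, and 1.03 and 1.13 with Y541S. In WT ML, all 3 giredestrant libraries lay below all 3 vehicle libraries for both genes. With library totals the D542G values were 0.24 and 0.40 and were not called. The WT vehicle ML libraries held 861 to 1006 CPM of endothelial markers against 183 to 249.6 with giredestrant, and the part of these markers was not tested. In Basal cells, the difference was 1.19 for Epcam with D542G, and 1.004 for Epcam and 1.20 for Itgb4 with Y541S. Both contrasts of a population share the WT libraries. Without D542G giredestrant Basal libraries 1 and 2, which held luminal markers, the D542G value for Epcam was 0.91, with 1 library of that group left.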

How the results depend on the processing

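Of 82 member calls, 43 were kept under every alternative run for them, and no call changed its direction under any alternative. Of 136 group levels, 32 moved by more than 1 SD with plain CPM. DESeq2 ended no member call and added 15, library totals ended 15 and added 8, no filter ended 8 and added 1, the replicate block ended 9 and added 5, and leaving out 1 library ended 124 and added 14 over all refits. The cause of a lost or gained call was not tested, beyond the fewer libraries of a fit that leaves some out.

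The number of members called moved by over 1.5 times as follows. Fits without D542G Basal libraries 1 and 2 or without Y541S ML libraries 1 and 2 keep 1 library in that group. Their counts, of members and of all genes, are not read as an effect of the markers in those libraries. Against ML, Y541S N went from 3 to 1 without Y541S ML libraries 1 and 2, and between the N populations from 0 to 1 with DESeq2 and to 1 with the replicate block. Between WT LP and ML it went from 1 to 2 with DESeq2. For giredestrant in D542G ML it went from 2 to 1 with library totals, to 0 with no filter and to 0 with the block, and in Y541S ML to 4 with library totals, to 4 with DESeq2 and to 0 without the ML libraries 1 and 2. Between mutant and WT vehicle ML, library totals ended all 3 calls for D542G and added 1, Cd44, and left 1 of 3 for Y541S, and between Y541S and WT giredestrant ML they left 1 of 3, with 0 without ML libraries 1 and 2. For the interaction in ML, library totals ended both calls with D542G and added 1, Itga6, and leaving out ML libraries 1 and 2 left 1 with Y541S. In Basal cells, giredestrant gave 2 in WT mice with DESeq2 and 2 with the block, 0 in D542G mice without Basal libraries 1 and 2, and 0 in Y541S mice with library totals, no filter or the block. Between D542G and WT giredestrant Basal, DESeq2 gave 2 and leaving out the 2 Basal libraries 0, and between Y541S and WT, no filter gave 2 and DESeq2 5. The interaction in Basal with D542G gave 0 with library totals, 2 with DESeq2, 0 with the block and 0 without the 2 Basal libraries, and with Y541S 1 with library totals and 1 with the block.

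With 1 library left out in turn, members called against ML, LP and Basal ranged over 3 to 4, 5 to 5 and 3 to 3 for D542G N and 1 to 3, 3 to 5 and 6 to 7 for Y541S N, and 0 to 1 between the N populations. In WT mice they ranged over 0 to 1 for LP with ML, 5 to 6 for LP with Basal and 6 to 7 for ML with Basal. For giredestrant they ranged over 3 to 4, 0 to 2 and 1 to 2 in WT, D542G and Y541S ML and 0 to 2, 2 to 5 and 0 to 1 in Basal. Against WT, vehicle ML gave 1 to 3 and 2 to 2, Y541S giredestrant ML 1 to 3, and giredestrant Basal 1 to 2 and 1 to 3. The interactions gave 1 to 2 and 2 to 2 in ML and 0 to 2 and 0 to 2 in Basal.

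The number of all genes called depended on the tool most where it was small. Between WT LP and ML it was 11, against 145 with no filter, 827 with DESeq2, 307 with the block and 0 to 257 with 1 library left out. Between D542G and WT LP it was 5, against 107, 771 and 0 in that order, and between Y541S and WT LP 587, against 1983 with DESeq2 and 278 with the block. Between D542G and WT vehicle Basal it was 10, against 50 with no filter, 256 with DESeq2 and 4 with the block, and for Y541S 27, against 105 with library totals, 158 with no filter, 701 with DESeq2 and 14 with the block. DESeq2 moved the count over 1.5 times elsewhere from 1665 to 2538 between the N populations, from 447 to 1321 for D542G against WT giredestrant ML, from 1867 to 2811 for Y541S against WT vehicle ML, from 1901 to 2899 for giredestrant in WT Basal, from 853 to 1788 for D542G against WT giredestrant Basal, and in the interactions from 1129 to 2136 and 994 to 1895 in ML and 108 to 927 and 766 to 1624 in Basal. Library totals moved it from 3370 to 5771 and from 1867 to 3688 for D542G and Y541S against WT vehicle ML, and to 3588, 2141 and 219 for the ML interactions and the D542G Basal interaction, which had 223 with no filter. Without D542G Basal libraries 1 and 2 it fell to 2550 against N, 427 against vehicle, 146 against WT and 13 in the interaction. Without Y541S ML libraries 1 and 2 it fell to 798, 1238, 125 and 167 in the same comparisons of ML.

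Leaving out 1 library moved the number of all genes called by over 1.5 times in several comparisons, given with the range over the libraries left out. It was 2153 (1234 to 2263) for Y541S N against ML and 1665 (484 to 1681) between the N populations. For giredestrant it was 3546 (1176 to 3160) and 4282 (2395 to 3912) in D542G and Y541S ML, and 1901 (493 to 2429), 4849 (2135 to 4776) and 2594 (1037 to 2076) in WT, D542G and Y541S Basal. Against WT, D542G and Y541S gave 3370 (1907 to 2532) and 1867 (648 to 2017) in vehicle ML, 447 (103 to 450) and 2599 (912 to 2783) in giredestrant ML, 5 (0 to 42) and 587 (0 to 979) in LP, 10 (0 to 18) and 27 (0 to 100) in vehicle Basal and 853 (166 to 840) and 2397 (1189 to 2407) in giredestrant Basal. The interactions gave 1129 (463 to 1253) and 994 (518 to 1145) in ML and 108 (3 to 609) and 766 (278 to 1095) in Basal.

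Where the sample number pairs the libraries, the block changed no other call of a member among the comparisons of Y541S N. In D542G N, where the numbers are not shown to pair the libraries, it called Cd24a (-0.40) and Cd44 (0.62) against ML as well. The smallest count of a member in a library was 47, and the values were not recomputed at a lower depth.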
